A study of Mus musculus with 36 samples.

Results

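Disease-associated microglia genes are transcripts that microglia, the resident macrophages of the brain, take up in neurodegeneration, demyelination and ageing. The set described here holds 10 genes chosen by name as known members of that state, namely Clec7a, Trem2, Tyrobp, Ctss, Cst7, Itgax, Axl, Lpl, Cd68 and Spp1, out of 56980 gene rows in the count table. They were chosen with earlier results of these data known. All 10 were among the 25601 genes that passed the filter on low counts. RNA with a polyA tail was sequenced from 36 brain samples of mice aged 37 to 45 days. The animals were knockouts of Ndufs4 (KO), a subunit of mitochondrial complex I, or wild type (WT), and were gavaged for 3 days with CP2, a small-molecule inhibitor of complex I, or with vehicle. All groups were gavaged and of the same age range. The labels do not say whether the deletion was restricted to a cell type, and nothing in them says that samples came from separate animals, so p-values measure the spread between samples. Each title also carries the letter F or M, which the labels do not define. The 8 groups were KO CP2 F, KO vehicle F, WT CP2 F, WT vehicle F, KO CP2 M and WT CP2 M with 5 samples each, and KO vehicle M and WT vehicle M with 3 samples each.

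Microglia in the healthy brain express sensing receptors such as P2ry12 and Tmem119. In the presence of lipid debris, apoptotic cells or plaques, the receptor Trem2 signals through its adaptor Tyrobp (also called DAP12), and the cells turn up phagocytic receptors, lysosomal proteases and lipid-handling enzymes. In Ndufs4 knockout mice, which model Leigh-like disease, lesions with reactive microglia are known mainly from the brainstem, cerebellum and olfactory bulb.

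The stretches upstream of 5 of the members that were called in the comparison of genotypes under CP2 are printed to show which letters of the motifs searched for they hold. They are the 160 bases before the annotated start, 5′ to 3′ on the gene's strand, from the RefSeq promoter table in GRCm38.p6, which is not the build of the counts. Capitals mark matches, on either strand, to GAGGAAG (an ETS and PU.1 core), TGANTCA (AP-1), CACGTG (the E-box of MITF and TFE factors) or GAANNGAAA (PU.1 with IRF8).
Trem2, chr17:48346241-48346400, plus strand: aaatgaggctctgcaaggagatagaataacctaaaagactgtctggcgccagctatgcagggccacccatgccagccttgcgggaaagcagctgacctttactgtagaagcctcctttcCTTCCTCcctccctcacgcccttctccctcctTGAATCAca
Clec7a, chr6:129472786-129472945, minus strand: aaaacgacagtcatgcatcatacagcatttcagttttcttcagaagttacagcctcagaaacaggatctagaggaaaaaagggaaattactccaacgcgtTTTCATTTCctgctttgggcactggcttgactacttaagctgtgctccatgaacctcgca
Itgax, chr7:128129390-128129549, plus strand: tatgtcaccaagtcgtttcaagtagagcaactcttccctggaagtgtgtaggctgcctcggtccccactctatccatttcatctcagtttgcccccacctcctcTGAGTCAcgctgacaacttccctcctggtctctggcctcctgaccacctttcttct
Ctss, chr3:95526626-95526785, plus strand: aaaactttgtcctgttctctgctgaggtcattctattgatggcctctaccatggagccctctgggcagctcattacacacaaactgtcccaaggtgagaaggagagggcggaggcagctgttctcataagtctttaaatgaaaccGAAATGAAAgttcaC
Cd68, chr11:69666171-69666330, minus strand: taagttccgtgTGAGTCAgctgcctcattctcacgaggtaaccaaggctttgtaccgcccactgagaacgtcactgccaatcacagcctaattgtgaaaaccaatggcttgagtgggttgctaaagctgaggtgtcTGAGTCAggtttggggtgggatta
The last capital base of the Ctss stretch begins a match that runs on past the start. The table held 8 of the 10 members, all but Tyrobp and Lpl. Over the full window, 250 bases before to 50 after the start, GAGGAAG was in 4 members (Ctss, Spp1, Axl and Trem2) and in 13.6% of all 32851 windows. TGANTCA was in 4 members (Cst7, Itgax, Cd68 and Trem2) and in 7.81% of windows. GAANNGAAA was in 3 members (Ctss, Clec7a and Cd68) and in 7.52% of windows, and CACGTG was in 0 members and in 7.15% of windows. These matches are letters in a window, with no binding data.

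Between 46124548 and 88559920 reads per sample were counted in genes, and every pair of replicates differed by more than sampling noise. L266 of KO CP2 M stood apart, with a chi-square per gene of 87.7 to 126 against the other 4 samples of its group, which were at 20.01 to 43.8 among themselves. Ndufs4 was at 27.4 to 39.1 CPM (counts scaled by the TMM-normalised library size) in KO and at 38.9 to 62.8 CPM in WT, so it was lower but not absent, and the files do not say which exons were deleted. Xist and Ddx3y split the samples by letter, except that L291 of KO CP2 M had 47.3 CPM of Xist beside the Ddx3y level of M. Defining microglial genes were present in all samples. The hippocampus and cortex are named as the tissue in the series' design text, while markers of cerebellum and hindbrain, 5 genes, summed to over 40 CPM in 5 samples. Those were L201, L233 and L234 of KO CP2 F, L298 of KO CP2 M and L278 of WT vehicle F. The members' calls that rest on these 5 samples, or on L266 and L291, are also given without them. Calls of genes in the other lists are given with all samples only.

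In WT vehicle brain the members differed widely in level. Per kilobase of exon, Ctss, a lysosomal cysteine protease, had the highest median at 37.3 CPM per kb (27.3 to 44.8, n = 8). Tyrobp followed at 15.2, Spp1 at 11.3 and Axl at 11.0 CPM per kb, and the ranges of these neighbours overlapped. Cd68 stood lower at 5.85 CPM per kb, with no overlap with Axl above it or Trem2 below it. Trem2, at 2.55, and Lpl, at 2.08 CPM per kb, overlapped. The genes Cst7 (0.144), Clec7a (0.138) and Itgax (0.0617 CPM per kb) were far below the others and overlapped each other. Levels of Clec7a, Cst7 and Itgax therefore rest on few reads, from 0 to 121 counts per sample. In one annotation (GENCODE, GRCm38), an exon of Spp1 overlaps the gene model Gm42793, so reads there may be shared. The pseudogene Hmgb1-ps5 lies in an intron of Ctss and overlaps no exon of it.

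**Figure D1:**
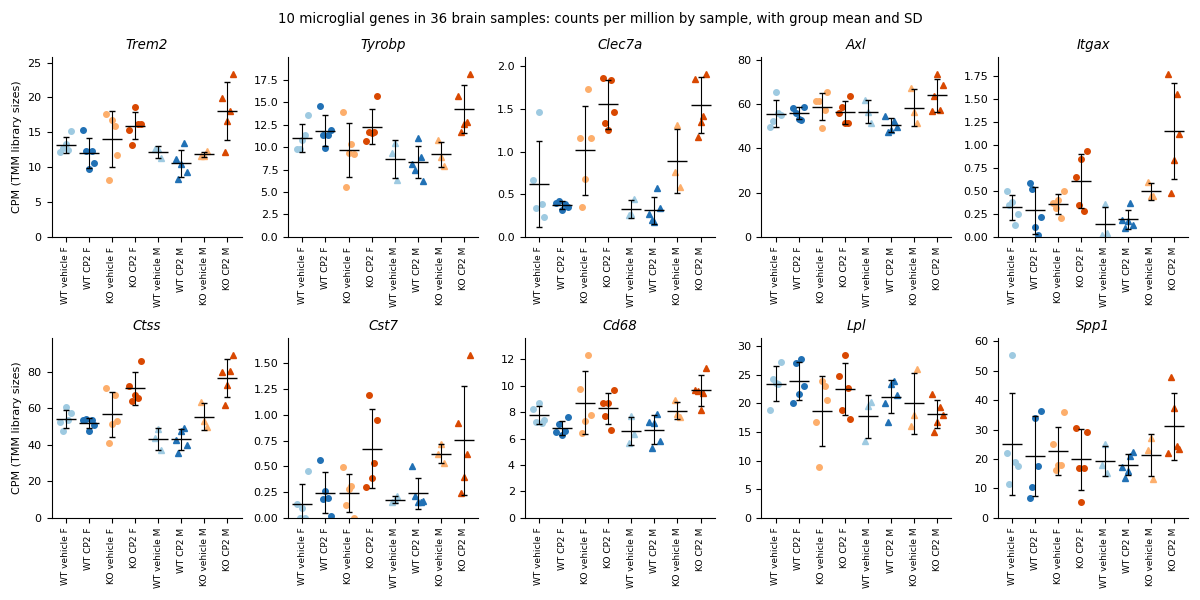
CPM of the 10 genes (vertical axes, linear from 0) in each of the 36 samples, by group, with the group mean (bar) and SD (whiskers); circles are samples with the letter F, triangles those with M. For Clec7a and Ctss the KO CP2 samples (dark orange) all lie above the WT CP2 samples (dark blue), while for every other gene they overlap in F, in M or in both.

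Under CP2, KO brain had more of most of these genes than WT brain. In the average over F and M, 8 of the 10 rose and 0 fell, beside 5.54% of all 25601 genes called higher (edgeR's quasi-likelihood test, Benjamini-Hochberg adjusted p under 0.05). Because the choice of the 10 was made with earlier results of these data known, this count beside the share is a description and not a test. The members that rose were Clec7a, Itgax, Cst7, Ctss, Trem2, Tyrobp, Cd68 and Axl, and Lpl and Spp1 did not pass. The median log2 fold change was 0.50 over the 10 and 0.01 over all genes. The same contrast under vehicle called 1 member, Clec7a, and CP2 alone called 0 in WT. In bulk tissue, more microglia and more RNA per microglial cell cannot be told apart.

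Clec7a encodes Dectin-1, a phagocytic receptor for glucans that is scarce in resting microglia. In F with CP2 its levels were 1.87, 1.34, 1.26, 1.85 and 1.46 CPM in KO and 0.402, 0.426, 0.310, 0.388 and 0.357 CPM in WT. In M with CP2 they were 1.86, 1.17, 1.35, 1.42 and 1.92 CPM in KO and 0.272, 0.203, 0.177, 0.574 and 0.337 CPM in WT. The lowest KO sample lay above the highest WT sample in both letters and across them. With vehicle the F samples were at 1.16, 0.353, 0.677, 1.73 and 1.16 CPM in KO and 0.671, 0.344, 1.47, 0.382 and 0.228 CPM in WT. The M samples with vehicle were at 0.762, 1.31 and 0.589 CPM in KO and 0.263, 0.273 and 0.445 CPM in WT. Here F overlapped, with WT sample L278, one of those high in hindbrain markers, above 4 of the 5 KO samples, and M did not overlap. Under CP2 Clec7a was 4.50-fold higher in KO, 2.17 on the log2 scale (SE 0.29, edgeR adjusted p 3.44e-06). Under vehicle it was 2.11-fold higher, 1.07 on the log2 scale (SE 0.33, edgeR adjusted p 0.0395). The vehicle call was lost in 10 of 16 fits that left out 1 sample (L246, L252, L277, L282, L285, L295, L296, L300, L319 or L322, edgeR adjusted p 0.0501 to 0.140), and the call under CP2 held in all 20.

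Trem2 is the lipid-sensing receptor on which the full disease-associated state depends. In F with CP2 it was at 15.4, 13.2, 18.6, 16.3 and 16.2 CPM in KO and 15.3, 12.3, 9.74, 12.3 and 10.7 CPM in WT. In M with CP2 it was at 19.9, 12.2, 16.6, 18.0 and 23.4 CPM in KO and 11.2, 8.34, 10.5, 13.4 and 9.25 CPM in WT. Both letters overlapped, M through KO sample L291 alone, which lay under the highest WT sample. Vehicle samples ran from 8.20 to 17.6 CPM in KO and from 11.3 to 15.1 CPM in WT, with the WT values inside the KO range. The genotype difference was 0.59 on the log2 scale (SE 0.11, edgeR adjusted p 3.93e-04) under CP2 and 0.03 on the log2 scale (SE 0.13, edgeR adjusted p 0.938) under vehicle. The call under CP2 held when each of the 20 samples was left out.

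Tyrobp, the adaptor that carries the signal of Trem2 into the cell, was at 10.7, 11.7, 11.6, 11.7 and 15.7 CPM in KO and 14.6, 11.3, 9.91, 11.4 and 11.9 CPM in WT in F with CP2. In M with CP2 it was at 15.7, 11.7, 12.5, 12.8 and 18.2 CPM in KO and 8.09, 7.48, 11.0, 8.90 and 6.20 CPM in WT. The groups overlapped almost fully in F and not at all in M. In KO with vehicle the levels were 13.9, 5.54, 9.32, 10.4 and 9.23 CPM in F and 10.7, 8.88 and 7.94 CPM in M. All 5 KO CP2 M samples exceeded the 3 KO vehicle M samples. The genotype difference under CP2 was 0.41 on the log2 scale (SE 0.12, edgeR adjusted p 0.0206), and that under vehicle -0.06 on the log2 scale (SE 0.14, edgeR adjusted p 0.864).

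Itgax encodes CD11c, an integrin chain that marks activated microglia and dendritic cells. In F with CP2 it was at 0.646, 0.347, 0.852, 0.279 and 0.932 CPM in KO and 0.582, 0.525, 0.103, 0.0194 and 0.214 CPM in WT. In M with CP2 it was at 1.78, 0.475, 0.839, 1.55 and 1.12 CPM in KO and 0.189, 0.101, 0.177, 0.364 and 0.126 CPM in WT. The M groups did not overlap, while in F 2 KO samples lay within the WT range. With vehicle Itgax was at 0.597, 0.444 and 0.442 CPM in KO M and 0.0188, 0.358 and 0.0387 CPM in WT M, without overlap, and the F groups overlapped (0.206 to 0.501 CPM in KO, 0.133 to 0.498 CPM in WT). Under CP2 Itgax was 3.56-fold higher in KO, 1.83 on the log2 scale (SE 0.42, edgeR adjusted p 0.00250), a call that held without each of the 20 samples. Under vehicle the difference was 0.98 on the log2 scale (SE 0.49, edgeR adjusted p 0.233).

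Axl is a receptor of the TAM family that binds apoptotic cells through Gas6. It was at 55.8, 58.7, 51.5, 51.5 and 63.6 CPM in KO CP2 F and 58.3, 55.7, 53.4, 52.9 and 58.6 CPM in WT CP2 F. In M with CP2 it was at 56.8, 63.5, 73.7, 57.1 and 68.5 CPM in KO and 54.7, 47.5, 48.3, 52.4 and 49.4 CPM in WT. The F groups overlapped throughout and the M groups did not overlap. The averaged difference was small, 0.18 on the log2 scale (SE 0.06, edgeR adjusted p 0.0464), and its call was lost in 12 of 20 fits that left out 1 sample (L201, L216, L234, L240, L257, L262, L263, L272, L289, L291, L292 or L299, edgeR adjusted p 0.0556 to 0.114). Vehicle samples of Axl spanned 49.1 to 67.4 CPM in KO and 49.6 to 65.4 CPM in WT. Since Axl is also expressed outside microglia, its level in whole tissue is a mixture of cell types.

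Ctss, the most abundant member per length, separated the genotypes fully under CP2. In F with CP2 it was at 72.3, 64.1, 67.5, 65.4 and 86.1 CPM in KO and 53.6, 54.3, 47.9, 53.4 and 50.8 CPM in WT. In M with CP2 it was at 79.9, 61.6, 72.7, 80.4 and 89.4 CPM in KO and 42.7, 35.5, 47.4, 49.3 and 40.1 CPM in WT. Every KO sample exceeded every WT sample in these 20. With vehicle it was at 71.1, 41.1, 51.3, 67.2 and 53.3 CPM in KO F and 52.3, 47.8, 60.8, 53.6 and 57.3 CPM in WT F. In M with vehicle it was at 63.7, 53.0 and 49.8 CPM in KO and 43.5, 48.9 and 37.1 CPM in WT. The F vehicle groups overlapped, and the M vehicle groups were separated by under 1 CPM. Under CP2 Ctss was 1.56-fold higher in KO, 0.64 on the log2 scale (SE 0.08, edgeR adjusted p 3.16e-06). Under vehicle the difference was 0.21 on the log2 scale (SE 0.09, edgeR adjusted p 0.176).

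Cst7 encodes cystatin F, an inhibitor of lysosomal cathepsins. In KO with CP2 it was at 0.297, 1.19, 0.389, 0.537 and 0.947 CPM in F and 0.921, 0.237, 0.396, 0.621 and 1.58 CPM in M. In WT with CP2 it was at 0.562, 0.180, 0.259, 0.194 and 0.0178 CPM in F and 0.503, 0.215, 0.155, 0.153 and 0.169 CPM in M. Both letters overlapped, each through 1 WT sample (L228 in F, L259 in M) that lay among the KO samples. Cst7 had 0 counts in KO vehicle F sample L283 and in WT vehicle F samples L277 and L295, which allows up to 0.0518, 0.0515 and 0.0498 CPM there, at 3 counts each. In M with vehicle the 3 KO samples (0.618, 0.719 and 0.534 CPM) lay above the 3 WT samples (0.150, 0.171 and 0.213 CPM). The difference under CP2 was 2.95-fold, 1.56 on the log2 scale (SE 0.53, edgeR adjusted p 0.04998), at the edge of the threshold. It was lost in 14 of 20 fits that left out 1 sample (L216, L233, L234, L240, L257, L262, L263, L266, L267, L272, L289, L298, L299 or L311, edgeR adjusted p 0.0534 to 0.122). The estimate stayed between 1.33 and 1.84 on the log2 scale. Without L266 and L291 together Cst7 was at 1.66 on the log2 scale (edgeR adjusted p 0.0600) and not called, while the other 7 calls held.

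Cd68 encodes a lysosomal membrane glycoprotein of macrophages that rises with phagocytosis. In F with CP2 it was at 8.73, 7.74, 8.67, 6.63 and 9.66 CPM in KO and 6.49, 7.12, 6.31, 6.60 and 7.62 CPM in WT. In M with CP2 it was at 9.65, 9.60, 8.14, 9.49 and 11.4 CPM in KO and 7.29, 5.26, 7.17, 7.85 and 5.80 CPM in WT. The M groups did not overlap, and 1 KO F sample, L233, lay within the WT range. The difference under CP2 was 0.41 on the log2 scale (SE 0.10, edgeR adjusted p 0.00509), and the call held without each of the 20 samples. With vehicle Cd68 spanned 6.44 to 12.4 CPM in KO and 5.67 to 8.70 CPM in WT, and the difference was 0.24 on the log2 scale (SE 0.12, edgeR adjusted p 0.224).

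Lpl and Spp1, the secreted members, did not pass in any of the averaged comparisons. Lpl encodes lipoprotein lipase, which neurons also express. It spanned 15.0 to 28.5 CPM in KO with CP2 and 16.8 to 27.7 CPM in WT with CP2, and the difference had a 95% interval of -0.42 to 0.11 on the log2 scale. Spp1 encodes osteopontin, a secreted integrin and CD44 ligand. It varied widely within groups, for example 30.6, 17.0, 5.52, 17.1 and 29.2 CPM in KO CP2 F and 6.75, 10.4, 34.1, 17.6 and 36.4 CPM in WT CP2 F. Its interval under CP2 was -0.28 to 0.99, which includes both no change and a rise larger than that of Ctss. Without the 5 samples high in hindbrain markers, the Spp1 estimate moved from 0.35 to -0.0149.

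**Figure D2:**
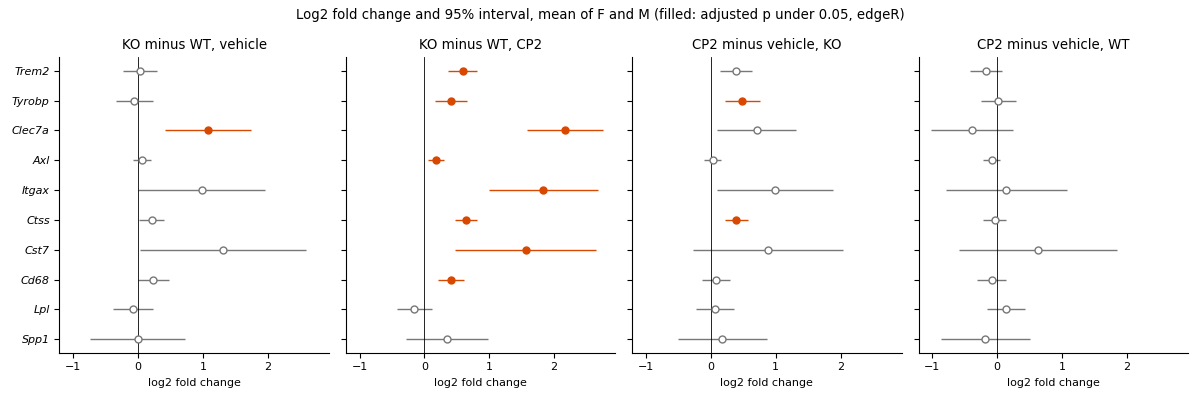
Log2 fold change (horizontal axis) with its 95% interval for each gene in 4 comparisons, averaged over F and M; filled orange points have an edgeR adjusted p under 0.05. The 8 filled points of KO minus WT under CP2 lie to the right of 0, against 1 filled point under vehicle, 2 for CP2 in KO and 0 for CP2 in WT.

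Without CP2 the knockout differed from WT in 1 member. Clec7a rose, 1 of 10 members beside 2.87% of all genes called higher, and 0 members fell. At an unadjusted p under 0.05, 4 members were higher (Clec7a, Ctss, Cst7 and Cd68), beside 10.5% of all genes. The median over the 10 was 0.14, against 0.02 over all genes. The estimates of Cst7 (1.31, SE 0.64), Clec7a and Itgax were the only ones near or above 1 on the log2 scale, and these are the 3 members with the fewest counts.

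CP2 was followed by higher levels of 2 members in KO. Tyrobp rose by 0.49 on the log2 scale (SE 0.13, edgeR adjusted p 0.0283) and Ctss by 0.40 on the log2 scale (SE 0.09, edgeR adjusted p 0.00913) between KO vehicle and KO CP2, 2 of 10 beside 2.08% of all genes called higher. Trem2 was just short of the threshold at 0.39 on the log2 scale (SE 0.12, edgeR adjusted p 0.0542). All 10 estimates were positive and their median was 0.40, against 0.00 over all genes. At an unadjusted p under 0.05, 5 members were higher (Ctss, Tyrobp, Trem2, Clec7a and Itgax), beside 9.4% of all genes. The Clec7a estimate was 0.71 on the log2 scale (SE 0.30, edgeR adjusted p 0.185) and that of Itgax 0.99 on the log2 scale (SE 0.44, edgeR adjusted p 0.214), while Cd68 was at 0.09 (SE 0.11). Without L266 and L291 together Trem2 (0.44, edgeR adjusted p 0.0441) and Ctss (0.43, 0.0144) were called and Tyrobp was not (0.50, 0.0516). Without KO vehicle M sample L322 both calls were lost (edgeR adjusted p 0.123 for Tyrobp and 0.0611 for Ctss). The Tyrobp call was also lost without L234, L266, L281, L299 or L319 (edgeR adjusted p 0.0529 to 0.0732), and Trem2 was called without L216, L246 or L291 (edgeR adjusted p 0.0213 to 0.0496). In the same contrast 4 of 8 oligodendrocyte genes rose, among them Mbp (0.39), with sums of 10266 to 13959.5 CPM in KO CP2 F, 7916 to 11687 in KO vehicle F, 8325 to 15222 in KO CP2 M and 7922 to 9307 in KO vehicle M, whose part in the members' levels was not tested.

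In WT brain 0 of the 10 were called for CP2, beside 0 of all genes called in either direction by edgeR. With no gene called at all, this count says nothing particular to the members. At an unadjusted p under 0.05 there were also 0 members, beside 1031 of all genes, of which 588 were higher (2.3%). DESeq2 and limma voom called 0 members as well. The estimates ran from -0.39 for Clec7a to 0.63 for Cst7, and 4 of 10 were positive. The interval of Ctss was -0.21 to 0.14 and that of Trem2 -0.41 to 0.07 on the log2 scale, while that of Clec7a was -1.02 to 0.25. Those of Cst7 (-0.59 to 1.85) and Itgax (-0.79 to 1.07) were wider still.

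The difference between the CP2 effects in KO and WT was tested as an interaction and called 0 members in either direction. Of all genes 183 were called, 81 higher (0.316%) and 102 lower. At an unadjusted p under 0.05, 4 members were positive (Ctss, Trem2, Clec7a and Tyrobp), beside 7.25% of all genes. The estimates were 0.43 on the log2 scale (SE 0.12, edgeR adjusted p 0.0837) for Ctss and 0.56 on the log2 scale (SE 0.17, edgeR adjusted p 0.0979) for Trem2. Clec7a was at 1.09 on the log2 scale (SE 0.43, edgeR adjusted p 0.217) and Tyrobp at 0.47 on the log2 scale (SE 0.19, edgeR adjusted p 0.219). DESeq2 called Ctss here (adjusted p 0.0486), as did edgeR without L246 or without L303 (adjusted p 0.0406 and 0.0443). Without the 5 samples high in hindbrain markers 0 members were called, with Ctss at 0.35, Trem2 at 0.56 and Clec7a at 0.68 on the log2 scale, and without L266 and L291 also 0. A CP2 effect called in KO and not called in WT is thus not shown to differ between the genotypes for 9 of the 10 by any tool run.

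Within F, the knockout under CP2 was called higher for 2 members, Clec7a (2.04 on the log2 scale (SE 0.41, edgeR adjusted p 0.00571)) and Ctss (0.45 on the log2 scale (SE 0.12, edgeR adjusted p 0.0309)), beside 0.715% of all genes. Those 2 were also the only members whose F groups did not overlap, beside 1.25% of all genes. The Ctss call in F was lost without L201, L228, L234, L257, L272 or L311 (edgeR adjusted p 0.0523 to 0.101). It was also lost in 5 of 13 other settings, with estimates of 0.35 to 0.45 on the log2 scale (adjusted p 0.0561 to 0.241). Without the samples high in hindbrain markers, 3 of which are in KO CP2 F, Clec7a in F stayed called at 1.79 (edgeR adjusted p 0.0317) and Ctss in F was not at 0.35 (edgeR adjusted p 0.241). Within M, 7 were called (Clec7a, Itgax, Ctss, Trem2, Tyrobp, Cd68 and Axl), beside 4.75% of all genes, and 6 did not overlap, all of those but Trem2, beside 4.76% of all genes. The M estimates of Itgax, 2.58 (SE 0.60), and Tyrobp, 0.77 (SE 0.17), stood beside 1.08 (SE 0.58) and 0.06 (SE 0.17) in F. Cd68 lost its M call without L262 (edgeR adjusted p 0.0571). All 7 M calls held without the samples high in hindbrain markers and without L266 and L291. Clec7a and Ctss held in M in all 13 other settings, while the other 5 lost theirs when either the outside-gene read share or the resting-microglia level entered as a covariate. With the first, Itgax was at 2.25, Trem2 at 0.64, Tyrobp at 0.53, Cd68 at 0.35 and Axl at 0.23 on the log2 scale (edgeR adjusted p 0.0561 to 0.284). With the second, Itgax was at 1.94, Trem2 at 0.48, Tyrobp at 0.29, Cd68 at 0.29 and Axl at 0.17 on the log2 scale (edgeR adjusted p 0.103 to 0.367).

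The difference between F and M was itself tested for 3 contrasts, and 0 members were called in each. For KO minus WT under CP2 the background was 0.82% of all genes, and 3 members (Tyrobp, Axl and Ctss), all with the larger estimate in M, had an unadjusted p under 0.05, beside 14.2% of all genes. The Tyrobp difference was -0.71 on the log2 scale (SE 0.24, edgeR adjusted p 0.140), and that of Axl -0.33 on the log2 scale (SE 0.12, edgeR adjusted p 0.172). The backgrounds for KO minus WT under vehicle were 0.102% after adjustment and 8.37% before it, and those for CP2 in KO 0.691% and 14.7%, with 0 members at either level.

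Under vehicle, 0 members were called in either direction within F, beside 1270 of all genes, 518 higher (2.02%) and 752 lower. Within M there were also 0, beside 132 of all genes, 58 higher (0.227%) and 74 lower. At an unadjusted p under 0.05 there were 0 in F, beside 5205 of all genes, of which 2605 were higher (10.2%). In M there were 3, all higher (Clec7a, Ctss and Itgax), beside 5.84% of all genes higher. The groups overlapped for all 10 members in F, beside 1.83% of all genes without overlap and higher in KO. In M 4 members did not overlap (Clec7a, Ctss, Cst7 and Itgax), beside 10.5% of all genes. For CP2 in KO, F gave 0 called members, beside 22 of all genes, 14 higher (0.0547%) and 8 lower. At an unadjusted p under 0.05 F gave 1 member (Ctss, 0.32, SE 0.12), beside 5.66% of all genes higher. No member was without overlap in F, beside 0.547% of all genes without overlap and higher. M gave 2 called members, Trem2 (0.61 on the log2 scale (SE 0.18, edgeR adjusted p 0.0449)) and Ctss (0.47 on the log2 scale (SE 0.13, edgeR adjusted p 0.0350)), beside 2.36% of all genes. Tyrobp was the 1 member without overlap there, beside 6.63% of all genes. Both M calls were lost without L266, L292, L299, L319 or L322 (edgeR adjusted p 0.0635 to 0.153 for Trem2 and 0.0510 to 0.249 for Ctss), and that of Trem2 also without L310 (edgeR adjusted p 0.121). Of 13 other settings, 8 lost the M call of Trem2 (0.28 to 0.62 on the log2 scale, adjusted p 0.0529 to 0.695), among them the one without the samples high in hindbrain markers (0.61, edgeR adjusted p 0.0684). The M call of Ctss was lost in 4 (0.0989 to 0.48 on the log2 scale, adjusted p 0.0534 to 0.835), and Tyrobp gained a call in M in 3 (adjusted p 0.0308 to 0.0498).

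**Figure D3:**
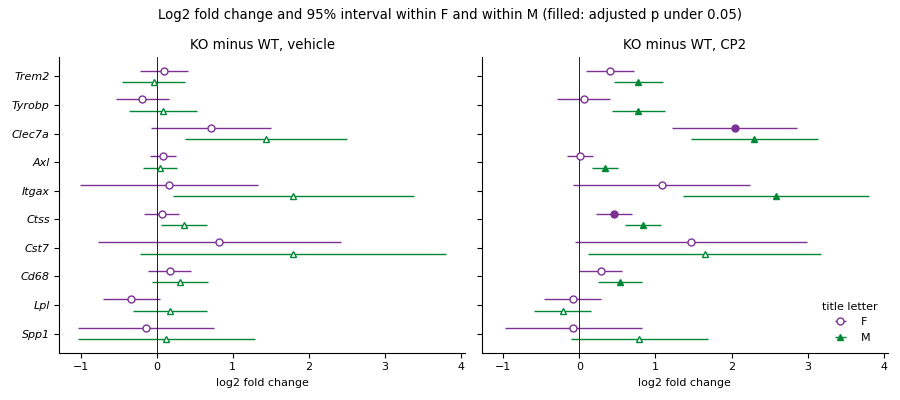
Log2 fold change of KO minus WT with its 95% interval, within F (purple circles) and within M (green triangles), under vehicle and under CP2; filled symbols have an edgeR adjusted p under 0.05. Under CP2 the intervals of F and M overlap for most genes, and Clec7a and Ctss are filled in both.

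The members did not form a single block across samples. Over the 36 samples the 45 pairs of members had a median Pearson correlation of log2 CPM of 0.42, from -0.47 (Axl with Lpl) to 0.84 (Trem2 with Ctss), and 17 pairs were above 0.5. As deviations from the group means, which removes the group differences, the median was 0.29 and the highest 0.84, for Tyrobp with Ctss. The points share libraries and the make-up of each dissected sample. Among the genes whose level followed the mean of the members most closely were Mpeg1, a macrophage perforin (r = 0.92), B2m, the light chain of MHC class I (0.86), Ly86 (0.85) and Pik3ap1 (0.82). Cela1, Csf1r, Adgre1, C1qc and Apcdd1 followed with 0.81 to 0.78. On the deviations Mpeg1 (0.79), C1qc (0.79), Cx3cr1 (0.76) and Vav1 (0.75) were the closest.

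Genes of resting microglia were read beside the members, since the same cells express them. Under CP2, 6 of 14 such genes rose in KO and 0 fell, among them Gpr34 (0.48), Siglech (0.41), P2ry12 (0.40) and P2ry13 (0.35 on the log2 scale), purinergic and lipid or sialic acid receptors. The median over the 14 was 0.17, against 0.50 for the members. Tmem119 was at -0.04 and Fcrls at -0.04. Under vehicle 0 of 14 rose and 2 fell, Fcrls (-0.56) and Tmem119 (-0.34), while Clec7a was higher. With CP2 in KO, 7 of 14 rose, led by Fcrls (0.61) and Gpr34 (0.52), beside 2 of the 10 members. Their summed level was 473 to 615 CPM in KO CP2 M, 390.3 to 484 in WT CP2 M, 444 to 601 in KO CP2 F and 462 to 519 in WT CP2 F.

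When the level of these 14 genes entered the model as a covariate, 4 members stayed called for KO minus WT under CP2. Clec7a was then at 1.88, Itgax at 1.51, Ctss at 0.46 and Trem2 at 0.44 on the log2 scale (edgeR adjusted p 4.12e-05, 0.0195, 4.12e-06 and 0.00829). Tyrobp was then at 0.16, Cd68 at 0.28, Axl at 0.09 and Cst7 at 1.07, none of them called. Under vehicle the covariate left Clec7a called and added Ctss (0.39, edgeR adjusted p 0.00156). For CP2 in KO the estimates of Tyrobp (0.0171), Ctss (0.0461) and Trem2 (0.09) came close to 0 and 0 members were called. The share of all genes called in this fit alone is not given. Over the 13 other settings the share called higher ranged from 2.62% to 10.5% for KO minus WT under CP2. It ranged from 0.57% to 6.37% under vehicle and from 0% to 3.64% for CP2 in KO.

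**Figure D4:**
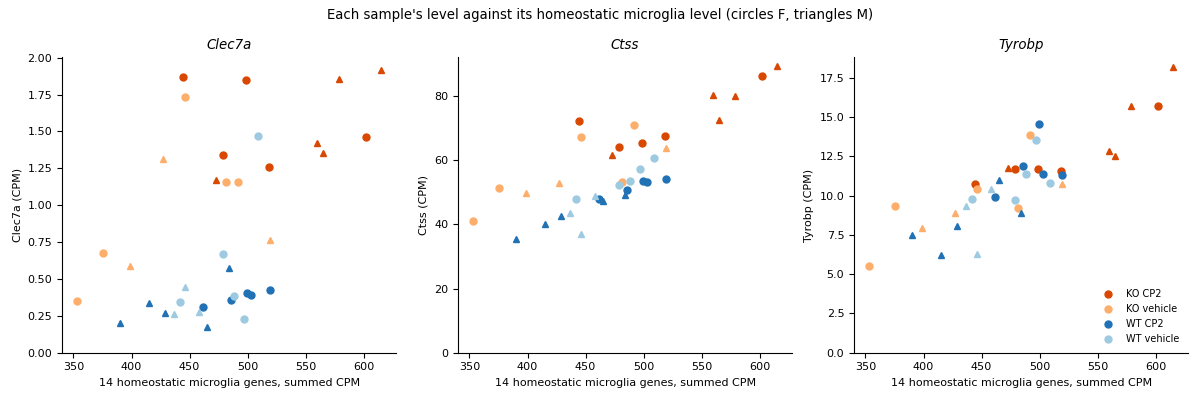
Level of Clec7a, Ctss and Tyrobp (vertical axes, CPM) against the summed CPM of 14 genes of resting microglia (horizontal axes) in each of the 36 samples; circles are F, triangles M, and colours give genotype and treatment. For Clec7a and Ctss all KO CP2 samples stand above all WT CP2 samples, for Tyrobp these groups overlap, and on the horizontal axis they overlap as well.

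Of 24 further genes of the disease-associated state, 10 rose in KO under CP2, 0 fell and 14 did not pass, with a median of 0.30. Those that rose included Ccl6, a chemokine (0.86), Gpnmb, a lysosomal glycoprotein (0.84), Cd52 (0.84) and Cd9, a tetraspanin (0.51 on the log2 scale). Apoe, a lipid carrier that astrocytes also make, was at 0.11 (edgeR adjusted p 0.444). Under vehicle 2 of 24 rose, Gpnmb (1.01) and Timp2 (0.33), and with CP2 in KO 5 of 24 rose, among them Cd52 (0.79) and Ctsz (0.39).

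Of 16 genes of signalling and shedding around Trem2 and Tyrobp, not all of them downstream, 1 rose and 1 fell in KO under CP2. Cd33, a sialic acid receptor, rose by 0.46. Dok3, an adaptor that restrains signalling through Tyrobp, was lower by the largest amount of the list, -1.50 under CP2 (edgeR adjusted p 1.38e-07) and -0.79 under vehicle. The kinase Syk (0.05), the phospholipase Plcg2 (0.23) and the sheddase Adam10 (0.01) did not pass. Of 15 ligands and partners of the members, 3 rose under CP2, namely Cd44, a receptor of osteopontin (0.62), Lgmn, a lysosomal protease (0.27), and Clu, a ligand of Trem2 (0.18), and Mertk, the TAM receptor beside Axl, fell (-0.27). Gas6, the ligand of Axl, was at -0.03. Of 11 transcription factors of the state, 2 rose, Spi1, which encodes PU.1 (0.47), and Bhlhe41 (0.23), while Bhlhe40 fell (-0.42).

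Markers of other macrophages and of blood cells were read because Itgax, Cd68, Cst7 and Tyrobp are also expressed there. Of 9 border macrophage genes 0 were called in any of the averaged comparisons, and their sum was 21.8 to 43.3 CPM (median 24.05) in KO CP2 F, 33.7 to 52.4 (median 36.01) in WT CP2 F, 38.0 to 55.6 (median 43.5) in KO CP2 M and 32.3 to 43.9 (median 41.1) in WT CP2 M. The median was thus lower in KO in F and higher in KO in M, and its part in the members' levels was not tested. Of 10 monocyte and neutrophil genes 9 could be tested and 0 were called, with sums of 1.22 to 5.52 CPM in KO CP2 F, 1.45 to 5.32 in WT CP2 F, 1.59 to 4.29 in KO CP2 M and 1.09 to 1.81 in WT CP2 M. Their median log2 fold change was 0.56 for KO minus WT under CP2, beside 0.50 for the members. It was 0.55 under vehicle and 0.57 for CP2 in KO. These genes had few reads, so the lack of calls says little, and their part in the members' levels was not tested. Of 8 lymphocyte genes 3 could be tested and 0 were called, and Cd3d and Ms4a1 had 0 counts in 28 and 15 samples. Red cell genes fell in KO under vehicle in 4 of 5, from sums of 85.1 to 387 and 115 to 647 CPM in WT F and M to 74.8 to 129 and 38.6 to 87.3 CPM in KO F and M, and the part of blood in the members' levels was not tested.

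Markers of hindbrain varied between samples and groups. Of 5 such genes 3 were called higher in KO under CP2. The 5 summed to 2.11 to 224 CPM in KO CP2 F, 0.201 to 10.5 in WT CP2 F, 7.11 to 45.9 in KO CP2 M and 0.575 to 2.51 in WT CP2 M. In KO CP2 F, Pcp2 and Cbln3 had medians of 0.165 and 0.645 CPM but highest values of 37.7 and 178 CPM. In M with CP2 the mean of Pcp2 was 0.240 CPM in KO and 0.236 in WT. Slc6a5 was at 5.37 to 44.3 CPM in KO CP2 M and 0.0442 to 1.63 in WT CP2 M. Without the 5 samples above 40 CPM, 5 members stayed called under CP2 (Clec7a, Trem2, Ctss, Itgax and Cd68), with Clec7a at 2.06, Ctss at 0.58 and Trem2 at 0.59 on the log2 scale. Tyrobp (0.39), Cst7 (1.71) and Axl (0.18) kept their size and lost the call. Clec7a stayed called under vehicle (1.38), and for CP2 in KO 0 members were called, with Ctss at 0.33. Astrocyte genes also moved in KO minus WT under CP2, with Gfap (1.28), Serpina3n (1.46) and Vim (0.88) higher, 3 of 8 tested. Under vehicle 2 of the 8 were called higher in KO as well, Serpina3n (1.30) and Vim (0.89). The 8 astrocyte genes summed to 2228 to 4046 CPM in KO CP2 F, 2395 to 2765 in WT CP2 F, 2702 to 4302 in KO CP2 M and 2048 to 2546 in WT CP2 M. Their part in the members' levels was not tested. Reads that the counting assigned to no gene feature made up 5.18% to 9.06% in KO CP2 M, 9.05% to 13.2% in WT CP2 M and 11.3% to 13.03% in KO vehicle M. They are called the outside-gene share here, and the sources do not say whether reads in introns are among them. With that share as a covariate, 5 members stayed called under CP2, the same 5 as without the hindbrain samples, while 0 were called under vehicle and 0 for CP2 in KO, with Clec7a under vehicle at 1.27 (edgeR adjusted p 0.0612). The shares of all genes called in these fits alone are not given either. For CP2 in KO this covariate gave 0.31 for Tyrobp and 0.27 for Ctss on the log2 scale (edgeR adjusted p 0.684 and 0.516). The title number as a covariate gave 0.38 and 0.34 (edgeR adjusted p 0.369 and 0.205), and a fit of only the groups compared gave 0.49 and 0.40 (edgeR adjusted p 0.0787 and 0.0558). In KO F the title numbers were L201 to L234 with CP2 and L246 to L283 with vehicle. In KO M they were L266 to L299 with CP2 and L310 to L322 with vehicle. Within KO, CP2 and the order of these numbers therefore cannot be told apart. In M with vehicle they were L310 to L322 in KO and L285 to L303 in WT. Genotype and number order cannot be told apart in that comparison either. In F with CP2 they were L201 to L234 in KO and L228 to L311 in WT, with some overlap.

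**Figure D5:**
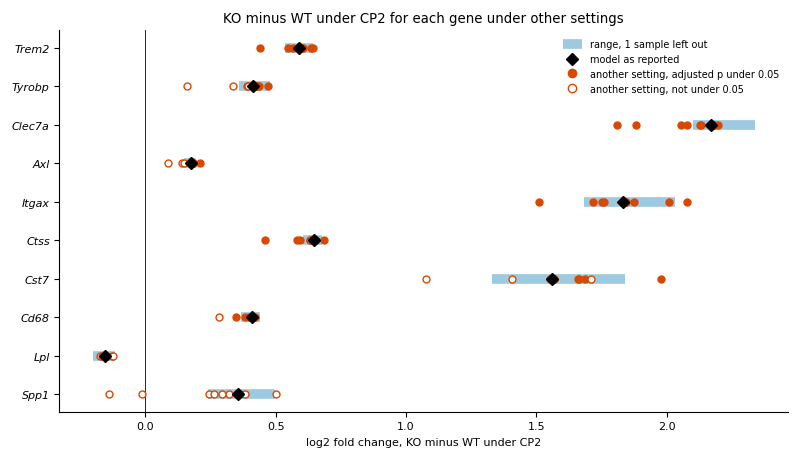
Log2 fold change of KO minus WT under CP2 for each gene (horizontal axis) as reported (black diamonds), under 13 other settings (orange, filled where the adjusted p is under 0.05) and as the range over fits that leave out 1 of 20 samples (blue bars). Clec7a, Ctss and Trem2 are filled under all 13, Itgax under all 12 that tested it, and Spp1 changes sign under 2.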

How the data were processed

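The authors deposited unnormalised read counts by Ensembl gene, made with STAR and HTSeq on GRCm39, per the submitters' processing notes, with versions, annotation, strandedness and filters not given in the sources used here. RNA came from a Trizol-based kit, was enriched for polyA and made into TruSeq libraries, per the labels' protocols. The 5 summary rows were left out. Symbols came from a name table that matched 91.4% of 56980 identifiers. Counts of all 36 samples were fitted with edgeR 4.0.16 in R 4.3.3 (TMM, filterByExpr, robust quasi-likelihood fit, 8 group means, 16 contrasts). P-values were adjusted by Benjamini-Hochberg over 25601 genes and called under 0.05. Averages weight F and M equally. Correlations used log2 CPM with a prior count of 2. Levels are CPM on TMM library sizes. No pair of replicates agreed within sampling noise (66 pairs), and the code was tested on simulated data. Alternatives included DESeq2 1.42.0, limma voom (limma 3.58.1), other filters and covariates, and leaving out samples. The members and lists were chosen with earlier results of these data known. A gene whose pattern was close to that of the members is not reported here. All 10 members are named, and from each other list up to 4 called genes each way with the largest change. From the lists, genes that did not pass and are given with values, such as Apoe and Gas6, were chosen after their values were seen. Both settings on hindbrain markers were added after seeing the data.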

Additional observations from a re-analysis of the deposited data

Results flagged for a closer look

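In 60 sets of 5 samples (10 genes in 6 groups), 3 held a sample whose gap to the nearest other exceeded 0.71 of the group's range, and chance gives about 1 in 20. Tyrobp was at 15.7 CPM in L234 of KO CP2 F, with the next sample at 11.7 CPM. Cst7 was at 0.503 CPM in L259 of WT CP2 M, with the next at 0.215 CPM. Spp1 was at 55.5 CPM in L278 of WT vehicle F, with the next at 22.0 CPM. L234 and L278 were also among the samples high in hindbrain markers, and the part of those markers in these values was not tested.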

How the results depend on the processing

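For KO minus WT under CP2, 8 members became 5 with the outside-gene share as covariate, 4 with the resting-microglia level and 5 without the hindbrain-high samples, and leaving out 1 sample gave 6 to 8. For KO minus WT under vehicle, 1 became 0 with no low-count filter, with the outside-gene share, with only the groups compared in the fit and with limma voom, 2 with the resting-microglia level, and 0 to 1 with 1 sample left out. For CP2 in KO, 2 became 0 with the outside-gene share, the title number, the resting-microglia level, without the hindbrain-high samples and with only the groups compared, and 0 to 3 with 1 sample left out. The interaction went from 0 to 1 with DESeq2, and ranged over 0 to 1 with 1 sample left out. CP2 in WT stayed at 0 members in all 13 settings and 18 fits. Sign changes were first read among values with an unadjusted p under 0.05 and all 10 members for KO minus WT under CP2. There they came in 4 fits, for values that were not called. Those were Tyrobp in the interaction (-0.0136) and Ctss for CP2 in KO F (-0.0067), both with the resting-microglia level. The others were Spp1 under CP2 with the hindbrain level (-0.14) and without the hindbrain-high samples (-0.0149). In KO minus WT under CP2, Clec7a, Ctss and Trem2 kept their call in all 13 settings and Itgax in the 12 that tested it. Tyrobp lost it in 3, Cst7 in 5 of 12, Axl in 6 and Cd68 in 1. The share of all genes called higher there ranged from 2.62% to 10.5%. Under vehicle it ranged from 0.57% to 6.37% and for CP2 in KO from 0% to 3.64%. The cause of these changes was not tested. The other 27 averaged values had an unadjusted p of 0.05 or more, and some of them are printed above. Of these, 14 changed sign in another setting and 0 were called. With 1 sample left out, 13 changed sign and 1 was called. No paired analysis was possible because every title number occurs in a single sample. Few reads limit Clec7a, Cst7 and Itgax, and 3 samples per group limit M with vehicle.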
